A study of Danio rerio with 10 samples.

Results

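The genes described here build the membrane of the red blood cell and the protein net beneath it: slc4a1a, sptb, epb41b, ank1a, rhd, rhag, aqp1a.1 and tmod4. They were picked by name, for what their proteins do, with earlier results of these data known. All 8 are listed among the 14781 genes of the deposited count table.

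A red cell keeps its shape through a net of spectrin whose corners are short actin filaments. Protein 4.1 strengthens the joint of spectrin and actin, tropomodulin caps the actin filaments, and ankyrin ties spectrin to band 3, the chloride and bicarbonate exchanger. Rh proteins, among them an ammonia channel and human blood group antigens, sit with band 3 in the membrane, as does the water channel aquaporin 1. Fish red cells keep their nucleus and, with it, messenger RNA of such genes in the circulation. Zebrafish mutants of slc4a1a (retsina), sptb (riesling) and epb41b (merlot and chablis) are anaemic.

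Cells came from pituitaries of adult male zebrafish (Danio rerio) of the TL strain, 12 months old. Every fish had received 10 µL of β-Ala-Lys-Nε-AMCA at 4.6 mM, a dipeptide that carries a blue coumarin dye, and was dissected 3 hours later. AMCA-positive libraries hold cells that had taken up the dye, named pituicytes (the glia of the neurohypophysis) by the labels. AMCA-negative libraries hold cells sorted as free of the dye from fish treated alike, named non-pituicytes. The labels name no transgene or mutation in either group. Each group has 5 libraries, of which 2 are from plate 1 (replicates 1 and 2) and 3 from plate 2 (replicates 3 to 5). Pituitaries were pooled by 7 before dissociation, in 5 pools over 2 sorting experiments. No label ties a library to its pool, so p-values measure the spread between these libraries.

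Libraries held between 5068078 and 5919478 counts in the AMCA-positive group and between 4250948 and 6068781 in the AMCA-negative group, with 11308 to 11817 and 7079 to 9056 genes detected. Genes that mark astroglia were higher in AMCA-positive libraries for 10 of 12 tested, and so were genes that mark leukocytes for 8 of 11. By edgeR at an adjusted p under 0.05, 16.2% of all genes tested were higher and 6.56% lower. The marker lists were written with earlier results of these data known. Markers of red cells that are none of the 8 genes made up 0.0881% ± 0.0422 of the counts in AMCA-positive libraries and 29.2% ± 7.71 in AMCA-negative libraries (SD, n = 5 each). Of these 18 markers, 16 were lower in AMCA-positive libraries, among them the red cell gene nt5c2l1 and the globin genes listed as si:ch211-5k11.6 and zgc:92880. The marker urod, an enzyme of haem synthesis, was higher instead, with 15.0 CPM (a count over the scaled library size times 1e+06) in AMCA-positive libraries and 0.0439 CPM, from 1 count, in AMCA-negative libraries. The marker fech was not called (adjusted p = 0.0529, edgeR), and 0 of the 18 were without a count in either group. In sorted pools of cells, fewer red cells and less RNA per red cell cannot be told apart.

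The 7 members that passed the filter on low counts were all lower in AMCA-positive libraries, by edgeR's quasi-likelihood test with p-values adjusted over 10468 genes and 0.05 as the threshold. Lower calls made up 6.56% of all genes tested. In all 7, every AMCA-positive library was below every AMCA-negative one, a pattern found in 5.72% of the genes tested. Their median log2 fold change (AMCA-positive over AMCA-negative) was -8.95, against 0.69 over all genes tested. The remaining member, ank1a, was too sparse to be tested. Since the genes were chosen with earlier results of these data known, and a gene can pass the filter through its level in 1 group alone, these counts describe the genes and are no independent evidence.

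**Figure D1:**
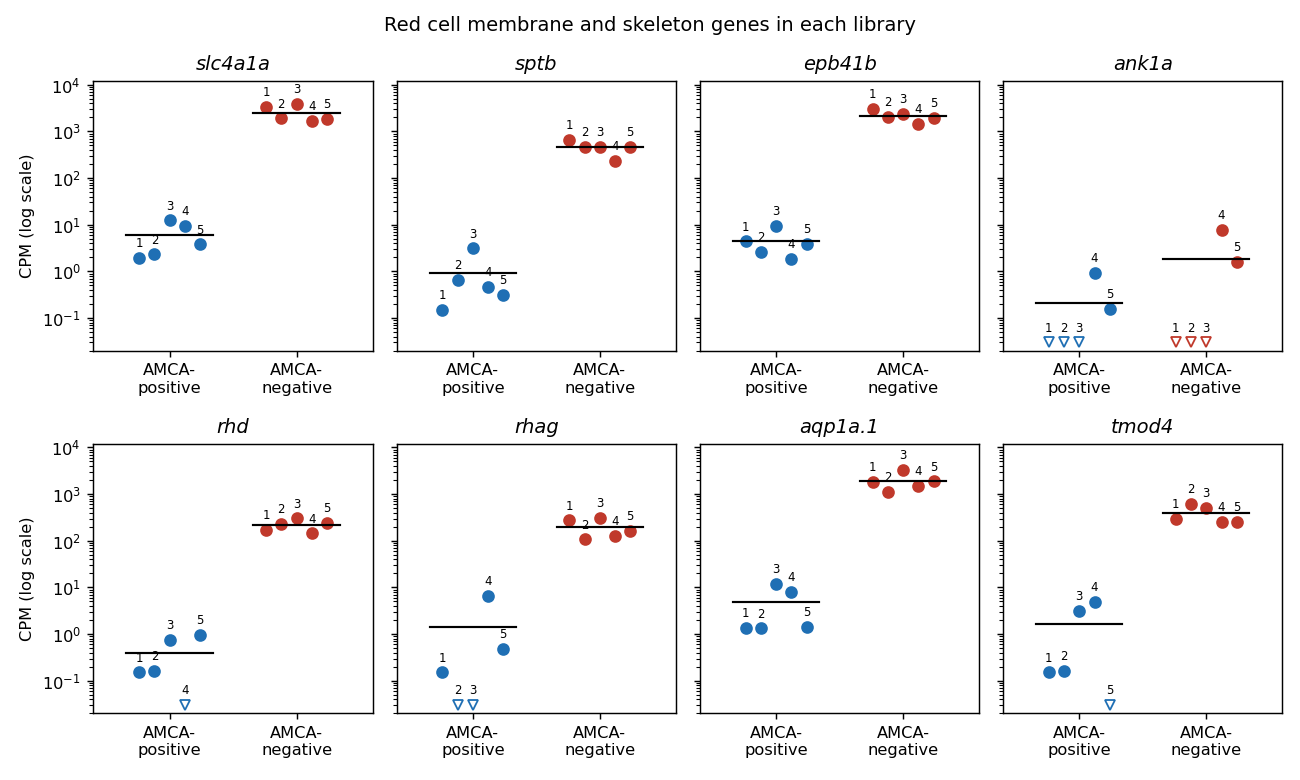
CPM (log axis, library sizes scaled by TMM) of the 8 genes in the 5 AMCA-positive and 5 AMCA-negative libraries, 1 panel a gene; points are libraries with their replicate number, black lines are group means and open triangles are libraries with no count. For the 7 genes other than ank1a, no AMCA-positive library reaches the lowest AMCA-negative one; ank1a is at 0 in 3 libraries of each group.

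The gene sptb encodes the β-spectrin of red cells, the chain whose loss marks the riesling mutant. It had 0.151, 0.662, 3.10, 0.458 and 0.315 CPM in AMCA-positive replicates 1 to 5, from 1, 4, 21, 3 and 2 counts. AMCA-negative replicates 1 to 5 had 647, 462, 462, 237 and 464 CPM, from 2299, 2104, 1887, 1258 and 2324 counts. The groups lie far apart, AMCA-positive replicate 3 holds most of the dye-positive counts, and AMCA-negative replicate 4 is the lowest of its group. Means were 0.938 ± 1.22 CPM across the AMCA-positive libraries, against 454 ± 146 CPM across the AMCA-negative ones (SD, n = 5 each), a log2 fold change of -8.95 (SE 0.86, adjusted p = 5.06e-05, edgeR). Without AMCA-positive replicate 3 the log2 fold change was -10.10 (adjusted p = 2.72e-06, edgeR).

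The gene epb41b encodes protein 4.1, which holds spectrin to actin. Its AMCA-positive replicates 1 to 5 had 4.39, 2.65, 9.46, 1.83 and 3.94 CPM, from 29, 16, 64, 12 and 25 counts. In AMCA-negative replicates 1 to 5 it had 3051, 2006, 2329, 1444 and 1914 CPM, from 10838, 9131, 9503, 7673 and 9591 counts. Of the 7 tested, this gene varied least between dye-negative libraries, with a coefficient of variation of 27.7%, and replicate 4 was again the lowest. Means were 4.45 ± 2.98 CPM across the AMCA-positive libraries, against 2149 ± 596 CPM across the AMCA-negative ones (SD, n = 5 each), a log2 fold change of -8.91 (SE 0.55, adjusted p = 2.19e-06, edgeR), or 481-fold lower.

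Tropomodulins cap the slow-growing end of actin filaments. The form encoded by tmod4 is known from skeletal muscle and, in chicken, from red cells too. It had 0.151, 0.165, 3.10, 4.88 and 0 CPM in AMCA-positive replicates 1 to 5, from 1, 1, 21, 32 and 0 counts. AMCA-negative replicates 1 to 5 had 294, 624, 503, 255 and 254 CPM, from 1043, 2843, 2054, 1353 and 1274 counts. Nearly all dye-positive counts came from replicates 3 and 4, and AMCA-negative replicate 2 stood highest. The log2 fold change was -8.24 (SE 1.22, adjusted p = 0.001, edgeR), with means of 1.66 ± 2.22 CPM across the AMCA-positive libraries, against 386 ± 169 CPM across the AMCA-negative ones (SD, n = 5 each). Without AMCA-positive replicate 4 it was -8.96 (adjusted p = 0.00143, edgeR).

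Of 19 genes that mark skeletal muscle, 5 could be tested and 0 were called by edgeR at an adjusted p under 0.05. The muscle myosin light chain gene mylpfa had 36 counts in AMCA-positive libraries, against 111 in AMCA-negative ones, and the creatine kinase genes ckma and ckmb had 179 and 293 counts in AMCA-positive libraries, against 360 and 150 in AMCA-negative libraries. The tested genes mylz3 and tnnt3b had 151 and 74 counts in AMCA-positive libraries, against 169 and 87 in AMCA-negative ones. Together the 19 made up 0.00149% to 0.0118% of the counts in AMCA-positive libraries and 0.0000941% to 0.0136% in AMCA-negative libraries, with the highest shares in AMCA-positive replicate 3 and AMCA-negative replicate 2. Both of these libraries were also high in tmod4. AMCA-positive replicate 3 held 21 of the 55 dye-positive counts, and AMCA-negative replicate 2 had 624 CPM, the most of its group. AMCA-positive replicate 4, with the most tmod4 of its group, had a muscle share of 0.00149%, close to 0.00151% in replicate 1 and 0.00156% in replicate 5. Of the 19 genes, 9 had no count in any AMCA-negative library, among them acta1b, actc1b, mylpfb and atp2a1, and 4 had none in any library. The part of muscle RNA in the tmod4 values was not tested.

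An ankyrin, the link from spectrin to band 3, is encoded by ank1a. Its relative ank1b was matched to no counted gene by name or RefSeq synonym, so the level of ank1b is not given. Counts of ank1a were 0, 0, 0, 6 and 1 in AMCA-positive replicates 1 to 5 and 0, 0, 0, 41 and 8 in AMCA-negative replicates 1 to 5. Replicate 4 led in both groups, at 0.915 CPM in the AMCA-positive and 7.72 CPM in the AMCA-negative library, and the groups overlap. In the libraries without a count, the upper limit that 0 counts allow was between 0.494 and 0.706 CPM of unscaled counts. With the filter removed, edgeR gave a log2 fold change of -2.58 (adjusted p = 0.405), and DESeq2 gave -2.08 (adjusted p = 0.517). The authors' deposited table has -2.36 with an adjusted p of 0.415. AMCA-negative replicate 4 alone held 41 of the 49 dye-negative counts of ank1a, and no difference was called.

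The gene slc4a1a encodes band 3, the anion exchanger that carries bicarbonate out of the cell and anchors ankyrin. It had 1.97, 2.32, 12.4, 9.31 and 3.79 CPM in AMCA-positive replicates 1 to 5, from 13, 14, 84, 61 and 24 counts. In AMCA-negative replicates 1 to 5 it had 3372, 1891, 3828, 1679 and 1879 CPM, from 11977, 8608, 15621, 8920 and 9414 counts. Replicates 3 and 4 are the highest of the dye-positive group, and the lowest dye-negative library is replicate 4. Means were 5.96 ± 4.66 CPM across the AMCA-positive libraries, against 2530 ± 994 CPM across the AMCA-negative ones (SD, n = 5 each), a log2 fold change of -8.95 (SE 0.64, adjusted p = 5.23e-06, edgeR).

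The Rh genes rhd and rhag encode the partners of the Rh complex; RhAG is an ammonia channel, while RhD is known as a blood group antigen in humans. AMCA-positive replicates 1 to 5 had 1, 1, 5, 0 and 6 counts of rhd, or 0.400 ± 0.415 CPM (SD, n = 5). AMCA-negative replicates 1 to 5 had 599, 1034, 1231, 764 and 1208 counts, or 216 ± 62.4 CPM (SD, n = 5). For rhd the log2 fold change was -9.10 (SE 0.82, adjusted p = 2.87e-05, edgeR), the furthest below 0 of the 7 tested and the 17th furthest of all genes tested.

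AMCA-positive replicates 1 to 5 had 1, 0, 0, 43 and 3 counts of rhag, so that replicate 4, at 6.56 CPM, held nearly all of them. In AMCA-negative replicates 1 to 5 it had 967, 488, 1244, 670 and 822 counts, at 272, 107, 305, 126 and 164 CPM. The groups did not overlap, with means of 1.44 ± 2.87 CPM across the AMCA-positive libraries, against 195 ± 88.7 CPM across the AMCA-negative ones (SD, n = 5 each). The log2 fold change was -7.61 (SE 1.41, adjusted p = 0.00377, edgeR), the smallest shift among the 7. Without AMCA-positive replicate 4 it was -10.09 (adjusted p = 0.000163, edgeR).

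Aquaporin 1, which lets water cross the red cell membrane, is encoded by aqp1a.1. Its AMCA-positive replicates 1 to 5 had 1.36, 1.32, 11.8, 7.93 and 1.42 CPM, from 9, 8, 80, 52 and 9 counts. AMCA-negative replicates 1 to 5 had 1828, 1113, 3338, 1496 and 1868 CPM, from 6492, 5067, 13621, 7952 and 9362 counts. As with slc4a1a, dye-positive replicates 3 and 4 and dye-negative replicate 3 stood above the rest of their groups. The log2 fold change was -8.95 (SE 0.72, adjusted p = 1.14e-05, edgeR), with means of 4.77 ± 4.86 CPM across the AMCA-positive libraries, against 1929 ± 844 CPM across the AMCA-negative ones (SD, n = 5 each). Reads may be shared with the neighbouring copy aqp1a.2, which had 8 counts in AMCA-positive libraries, against 98 in AMCA-negative ones. Aquaporin 1 is also made by endothelium in mammals. Of 12 endothelial markers tested, 5 were higher in AMCA-positive libraries and 0 lower, against 16.2% and 6.56% of all genes tested. Erg, clec14a and pecam1 led these, with 361, 322 and 515 counts in AMCA-positive libraries and 1, 2 and 3 counts in AMCA-negative libraries. Endothelial markers made up 0.0131% to 0.0209% of the counts in AMCA-positive libraries and 0.000709% to 0.0216% in AMCA-negative libraries, and their part in the aqp1a.1 values was not tested.

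Both plates were also fitted alone. In plate 1, with 2 libraries a group, the log2 fold changes were -10.47 for slc4a1a, -10.55 for sptb, -9.70 for epb41b, -10.26 for rhd, -10.29 for aqp1a.1 and -11.45 for tmod4, with adjusted p between 0.0108 and 0.0337 (edgeR). For rhag it was -11.09 in plate 1, where the adjusted p of 0.0726 missed the threshold. In plate 2, with 3 libraries a group, they were -8.17 for slc4a1a, -8.19 for sptb, -8.53 for epb41b, -8.61 for rhd, -6.38 for rhag, -8.29 for aqp1a.1 and -6.96 for tmod4, with adjusted p between 0.00164 and 0.0329 (edgeR). AMCA-positive replicates 3 and 4, the dye-positive libraries with the most counts of the 8 genes together, are both on plate 2. This order does not hold gene by gene. Replicate 4 had the fewest counts of epb41b, at 12, and no count of rhd, and replicate 3 had no count of rhag. The difference between the plates was not tested.

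The authors' deposited table gives log2 fold changes (AMCA-positive over AMCA-negative) of -8.46 for slc4a1a, -8.58 for sptb, -8.69 for epb41b, -8.78 for rhd, -6.52 for rhag, -8.34 for aqp1a.1 and -7.37 for tmod4. In the authors' deposited table, 8.31% of the genes with an adjusted p-value are lower at 0.05. That table pairs 6 of the 8 genes with a mouse gene and places 5 of them at the plasma membrane; ank1a and epb41b have no mouse name there.

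Of 11 other genes listed with the red cell skeleton, 1 was lower and 1 higher in AMCA-positive libraries, and 9 were not called. Across all genes tested, 6.56% were lower and 16.2% were higher. The median log2 fold change of the 11 was 0.82, against 0.69 over all genes. The list also holds genes of membrane and raft proteins, namely stom, gypc, flot1a, flot1b, flot2a and flot2b. Its counts and median therefore do not describe the skeleton alone. Epb42, add2 and tmod1 were not analysed here.

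The gene lower in AMCA-positive libraries was dmtn, which encodes dematin, a protein that bundles actin in the red cell skeleton. It had 40.3, 20.4, 14.0, 26.1 and 21.9 CPM in AMCA-positive replicates 1 to 5. In AMCA-negative replicates 1 to 5 it had 985, 836, 1622, 1111 and 668 CPM, and the groups did not overlap. Its log2 fold change was -5.43 (SE 0.39, adjusted p = 5.27e-06, edgeR). The gene higher in AMCA-positive libraries was add3a, which encodes γ-adducin. It had 49.2 CPM on average in AMCA-positive libraries and 0.213 CPM in AMCA-negative ones, from 1589 and 5 counts. For add3a the log2 fold change was 7.74 (SE 1.14, adjusted p = 0.000866, edgeR), and 7.30 to 8.45 over the 10 fits that each left out 1 library. In plate 1 alone add3a was at 8.14 and lost its call (adjusted p = 0.116, edgeR). Levels of mpp1, which encodes the scaffold p55, averaged 148 CPM across the AMCA-positive libraries, against 99.9 CPM across the AMCA-negative ones (adjusted p = 0.372, edgeR). Stomatin (stom) averaged 28.8 CPM across the AMCA-positive libraries, against 18.6 CPM across the AMCA-negative ones (adjusted p = 0.418, edgeR). The raft genes flot2a and flot1b had log2 fold changes of 1.35 and 1.16 (adjusted p = 0.0568 and 0.0605, edgeR), and passed the threshold without AMCA-negative replicate 1 (adjusted p = 0.0389 and 0.0336).

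**Figure D2:**
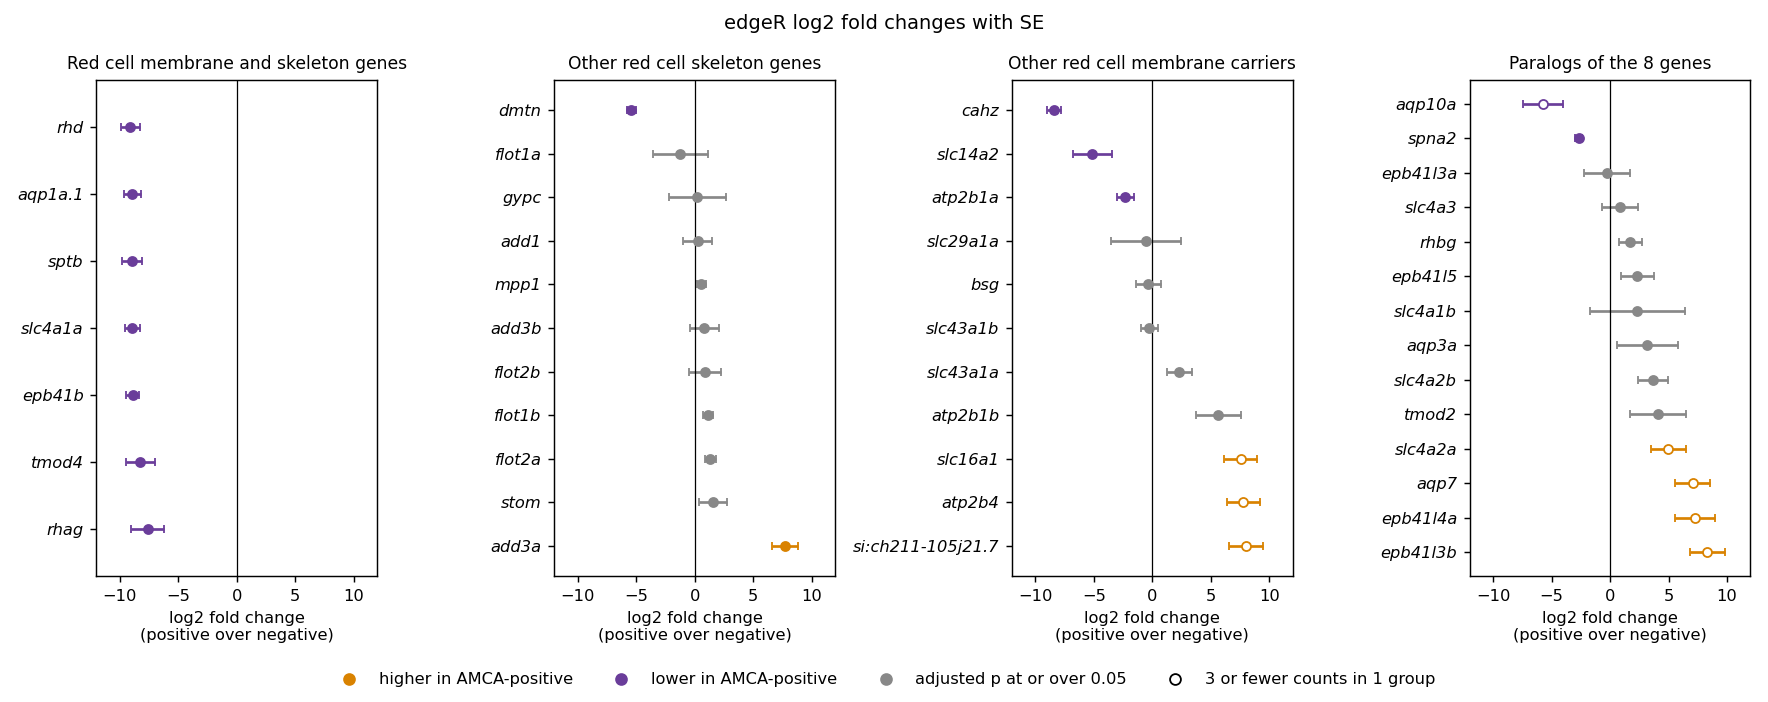
Log2 fold changes of AMCA-positive over AMCA-negative libraries with their SE (edgeR, 5 libraries a group) for the 7 tested genes of the red cell membrane and skeleton and the tested genes of 3 related lists; purple is lower, orange higher and grey not called at an adjusted p of 0.05, and open points have 3 or fewer counts in 1 group, where the fitted value depends on the prior count. The first panel lies between -9.10 and -7.61, while the other 3 panels have points on both sides of 0.

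Of 14 other carriers and enzymes that work at the red cell membrane, 11 were tested, of which 3 were lower, 3 higher and 5 not called in AMCA-positive libraries. Their median log2 fold change was -0.26. Over all genes tested, 6.56% were lower and 16.2% higher. The gene cahz encodes the carbonic anhydrase of zebrafish red cells, which makes the bicarbonate that band 3 exchanges. It averaged 78.5 ± 58.0 CPM across the AMCA-positive libraries, against 24375 ± 12989 CPM across the AMCA-negative ones (SD, n = 5 each), with a log2 fold change of -8.43 (SE 0.59, adjusted p = 4.76e-06, edgeR) and no overlap. Urea transporter gene slc14a2 had 0, 40, 0, 6 and 1 counts in AMCA-positive replicates 1 to 5 and 61, 321, 224, 112 and 12 in AMCA-negative replicates 1 to 5. Its groups overlap in CPM, and its call (adjusted p = 0.0491, edgeR) was lost in 7 of the 10 fits that each left out 1 library, namely AMCA-positive replicates 1, 3, 4 and 5 and AMCA-negative replicates 2, 3 and 4, with adjusted p between 0.0555 and 0.126. Calcium pump gene atp2b1a averaged 38.9 CPM across the AMCA-positive libraries, against 222 CPM across the AMCA-negative ones (log2 fold change -2.30, adjusted p = 0.034, edgeR), again with overlap. Its call was lost without AMCA-positive replicates 2, 3, 4 or 5 or AMCA-negative replicates 2 or 5, with adjusted p between 0.0518 and 0.105.

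The 3 carriers higher in AMCA-positive libraries were nearly without counts in AMCA-negative ones. The calcium pump gene atp2b4 had 699 counts in AMCA-positive libraries, against 2 in AMCA-negative ones, a ratio of 244 per scaled count (95% interval 67.2 to 2014). The lactate carrier gene slc16a1 had 403 counts in AMCA-positive libraries and 1 in AMCA-negative ones, a ratio of 281 (50.1 to 11116). Its relative si:ch211-105j21.7, named slc16a1a in RefSeq, had 187 counts in AMCA-positive libraries, against 0 in AMCA-negative ones and was at least 43.4-fold higher, with its AMCA-negative total set to a floor of 3 counts. Intervals and floors cover counting error only.

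Relatives of the 8 genes (called paralogs here) number 28 in the table, of which 14 were tested. In AMCA-positive libraries 4 were higher, 2 lower and 8 not called, while 16.2% of all genes tested were higher and 6.56% lower. The median log2 fold change of the 14 was 2.76. These counts include spna2, an α-spectrin gene, although α-spectrin is the partner chain of β-spectrin rather than a close copy of it. The second band 3 gene, slc4a1b, had 0, 0, 0, 0 and 43 counts in AMCA-positive replicates 1 to 5 and 55, 37, 0, 0 and 0 in AMCA-negative replicates 1 to 5 (adjusted p = 0.757, edgeR). A spectrin gene was lower, spna2, named sptan1 in RefSeq, which encodes the αII-spectrin found outside red cells in mammals. It had 37.4, 43.8, 81.7, 61.2 and 94.3 CPM in AMCA-positive replicates 1 to 5, and AMCA-negative replicates 1 to 5 had 464, 405, 377, 299 and 436 CPM. The groups did not overlap, and the log2 fold change was -2.70 (SE 0.32, adjusted p = 0.000203, edgeR). Glycerol and water channel gene aqp10a had 1 count in AMCA-positive libraries, against 114 in AMCA-negative ones, a 164-fold lower ratio (95% interval 28.8 to 6519), with overlap. Its call (adjusted p = 0.035, edgeR) was lost without AMCA-positive replicates 1, 2, 3 or 4 or AMCA-negative replicates 1 or 2, with adjusted p between 0.051 and 0.101.

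Among the relatives higher in AMCA-positive libraries, epb41l3b of the protein 4.1 family had 812 counts in AMCA-positive libraries, against 1 in AMCA-negative ones, a ratio of 566 (95% interval 101.2 to 22371). The related epb41l4a had 114 counts in AMCA-positive libraries, against 0 in AMCA-negative ones, and the aquaporin gene aqp7 had 99 and 0. With AMCA-negative totals set to the same floor, they were at least 26.5-fold and 23.0-fold higher. Both calls were lost with neighbouring wells as a block (adjusted p = 0.0624 for epb41l4a and 0.0597 for aqp7, edgeR). The call of epb41l4a was also lost by limma-voom (adjusted p = 0.0529), without AMCA-positive replicates 3 and 4 (0.0684) and without AMCA-negative replicates 3 and 4 (0.0705). The exchanger gene slc4a2a had 133 counts in AMCA-positive libraries, against 3 in AMCA-negative ones, a ratio of 30.9 (95% interval 10.3 to 152). The call of slc4a2a (adjusted p = 0.0326, edgeR) was lost without AMCA-positive replicates 1, 2, 4 or 5 or AMCA-negative replicates 1, 2 or 3, with adjusted p between 0.0551 and 0.0765. The neuronal tropomodulin gene tmod2 averaged 20.04 CPM across the AMCA-positive libraries, against 14.0 CPM across the AMCA-negative ones (adjusted p = 0.28, edgeR).

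Counts of the 8 genes together made up 0.00101%, 0.000828%, 0.00465%, 0.00394% and 0.00138% of AMCA-positive replicates 1 to 5. In AMCA-negative replicates 1 to 5 they made up 0.805%, 0.561%, 0.744%, 0.486% and 0.616%. Set against the 18 red cell markers, the groups interleaved. The 8 genes had 15.8, 13.4, 29.9, 71.4 and 13.2 counts per 1000 red cell marker counts in AMCA-positive replicates 1 to 5. AMCA-negative replicates 1 to 5 had 28.5, 21.6, 17.4, 20.5 and 24.2. The dye-positive values lie on both sides of the dye-negative ones, with 3 libraries below them all and 2 above.

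Summed over each group, slc4a1a had 8.11 counts per 1000 red cell marker counts in AMCA-positive libraries, against 6.86 in AMCA-negative ones, a ratio of 1.18. The ratio was 1.03 for sptb, 1.03 for epb41b, 0.884 for rhd and 1.22 for aqp1a.1. It was higher for tmod4, at 2.11, and for rhag, at 3.69, and the groups of libraries overlapped for every one of these genes. AMCA-positive replicate 4 held 43 of the 47 dye-positive counts of rhag and 32 of the 55 of tmod4. Without that library the ratio was 0.357 for rhag and 1.00 for tmod4, and between 0.926 and 1.07 for slc4a1a, sptb, epb41b, rhd and aqp1a.1. The sparse ank1a had 7 of the 653 counts in AMCA-positive libraries and 49 of the 171285 in AMCA-negative ones. The 18 markers include 6 globin genes, which supply most of their counts. Against the 12 other markers, the 8 genes had 201 counts per 1000 in AMCA-positive libraries and 385 in AMCA-negative ones. The ratio was 0.522, and the groups still overlapped. Without AMCA-positive replicate 4 it was 0.436, and each remaining AMCA-positive library was below each AMCA-negative one. With all libraries, slc4a1a was the only gene of the 8, at a ratio of 0.492, whose AMCA-positive libraries were all below the AMCA-negative ones. Without AMCA-positive replicate 4 this also held for rhag, at 0.160. Of the 3253 dye-positive counts of these 12 markers, 1385 were of the biliverdin reductase gene blvrb and 490 of urod. Urod was higher in AMCA-positive libraries, while blvrb was lower (log2 fold change -6.31, adjusted p = 1.19e-06, edgeR). Without these genes, a setting chosen after the values were seen, the 8 genes had 474 counts per 1000 in AMCA-positive libraries, against 461 in AMCA-negative ones, a ratio of 1.03. For slc4a1a the ratio was then 0.968, with 142 counts per 1000 in AMCA-positive libraries, against 147 in AMCA-negative ones, and its groups overlapped. The ratio was 0.724 for rhd, 0.842 for epb41b, 0.846 for sptb and 1.00 for aqp1a.1, but 1.73 for tmod4 and 3.02 for rhag. The ratio of 1.03 thus sums genes with unlike values. It was not computed without AMCA-positive replicate 4, which held most dye-positive counts of tmod4 and rhag. No test was run on these proportions.

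**Figure D3:**
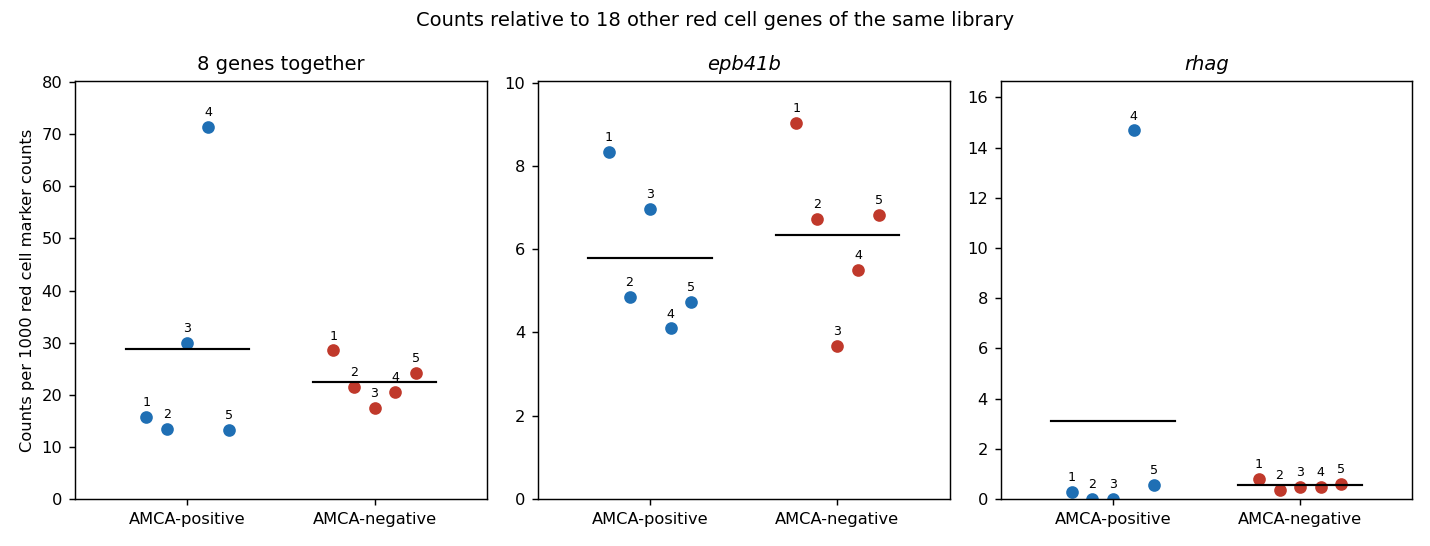
Counts per 1000 counts of the 18 red cell markers in each library, for the 8 genes together, for epb41b and for rhag; points are libraries with their replicate number and black lines are group means. AMCA-positive replicate 4 is at 71.4 for the 8 genes together, while the AMCA-negative libraries lie between 17.4 and 28.5.

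The make-up of the 8 genes' counts varied more between the dye-positive libraries, which have few of them, than between the dye-negative ones. In AMCA-positive libraries slc4a1a gave 23.6% to 34.3% of these counts, in AMCA-negative libraries 27.69% to 35.01%. For aqp1a.1 the shares were 12.9% to 29.1% in AMCA-positive libraries, against 17.3% to 30.2% in AMCA-negative libraries. In AMCA-positive replicate 4, rhag made up 20.6% of 209 counts (95% Clopper-Pearson interval 15.3% to 26.7%), against 1.67% to 2.83% in the AMCA-negative libraries. That library also had 15.3% tmod4 (10.7% to 20.9%), against 3.05% to 9.71%, and 5.74% epb41b (3.00% to 9.81%), against 21.0% to 31.7% in the AMCA-negative libraries. Its counts of gata1a, a red cell transcription factor among the markers, were 57, while the other AMCA-positive libraries had 1 to 9. Other transcription factors among the markers, klf1, klf17 and tal1, are not given here by library. All red cell markers together had 2928 counts in AMCA-positive replicate 4, the lowest total of its group. In AMCA-positive replicate 1 epb41b gave 52.7% of 55 counts (38.8% to 66.3%). AMCA-positive replicate 3, the other library with many counts of these genes, held 0 counts of rhag among 275, which allows up to 1.33% by the same interval. All of these intervals cover counting error only, not the spread between libraries or from amplification.

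**Figure D4:**
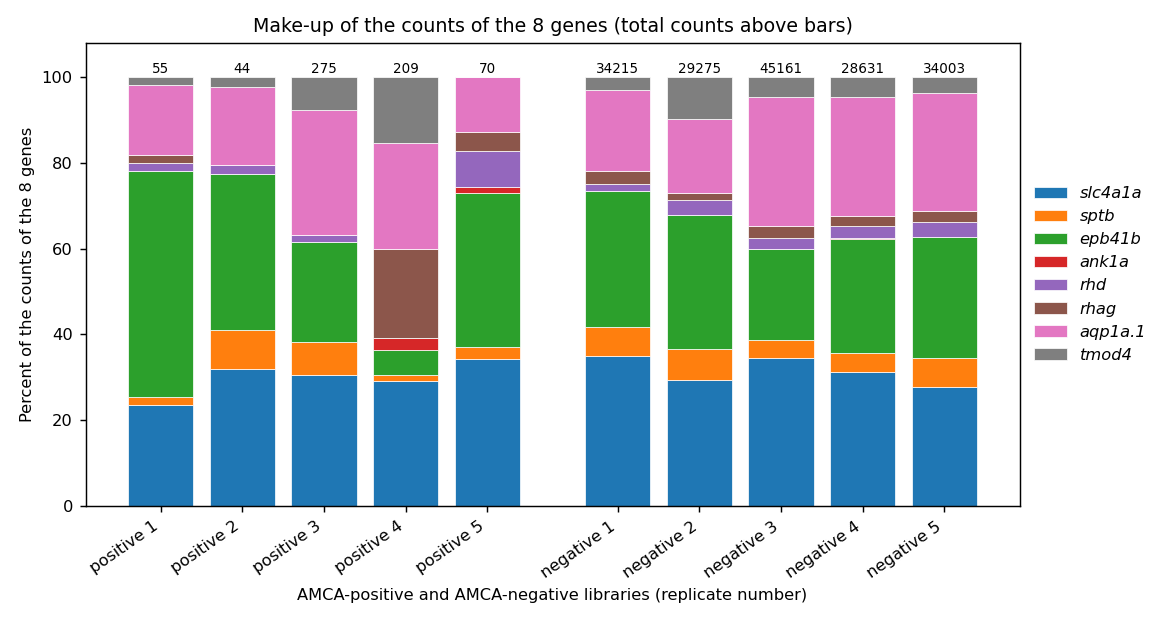
Share of each of the 8 genes in their summed counts (%), 1 bar a library, AMCA-positive libraries at the left and AMCA-negative at the right; the number above a bar is the summed count. The AMCA-negative bars, each from at least 28631 counts, vary less between libraries, and AMCA-positive replicate 4 stands out by its rhag and tmod4 segments.

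Within the AMCA-negative group the 7 tested genes varied by a coefficient of variation of 27.7% (epb41b) to 45.5% (rhag). The highest library was between 2.098 times (rhd) and 3.00 times (aqp1a.1) the lowest. Replicate 4 was the lowest for slc4a1a, sptb, epb41b and rhd, while replicate 2 was the lowest for rhag and aqp1a.1 and the highest for tmod4. Of 5 tested marker genes of thrombocytes, the nucleated platelets of fish, 3 were lower in AMCA-positive libraries, against 6.56% of all genes tested. Itgb3b and fn1b were not called (adjusted p = 0.908 and 0.801, edgeR). Thrombocyte markers made up 0.0159% ± 0.0050 of the counts in AMCA-positive libraries, against 0.0396% ± 0.0155 in AMCA-negative libraries (SD, n = 5 each). The platelet glycoprotein gene gp1bb averaged 10.0 CPM across the AMCA-positive libraries, against 193 CPM across the AMCA-negative ones (adjusted p = 0.00351, edgeR). Itga2b averaged 0.333 CPM across the AMCA-positive libraries, against 95.8 CPM across the AMCA-negative ones (adjusted p = 0.012, edgeR), with 0 counts in AMCA-negative replicate 5 and overlapping groups. Nfe2, a transcription factor among these markers, was the third lower gene (adjusted p = 0.0229, edgeR). Its call was lost without AMCA-positive replicate 2 or 4 (adjusted p = 0.0584 and 0.0544, edgeR). The part of thrombocytes in the values of the 8 genes was not tested.

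The genes next to the 8 on the chromosome give a view of the region around them, with neighbours taken from RefSeq's annotation of the assembly GRCz12tu and counts from the deposited table. Of 16 neighbours, 7 are in the table and 5 were tested. Next to rhd, tmem50a averaged 232 CPM across the AMCA-positive libraries, against 456 CPM across the AMCA-negative ones, a log2 fold change of -0.98 (SE 0.24, adjusted p = 0.013, edgeR). Next to slc4a1a, ubtf averaged 108.2 CPM across the AMCA-positive libraries, against 44.8 CPM across the AMCA-negative ones (log2 fold change 1.27, adjusted p = 0.0614, edgeR). The neighbours of epb41b (trim35-28), rhag (si:ch211-22i13.2) and tmod4 (scnm1) had log2 fold changes of -0.83, -1.28 and -0.44 and were not called (adjusted p = 0.673, 0.0607 and 0.817, edgeR). No protein-coding gene overlaps any of the 8 in that annotation.

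The genes outside every list whose profile over the 10 libraries was most like that of the 7 tested genes were rfesd, si:ch211-197g15.10, ucp3, nmt1b, tal2 and mibp. Likeness was the root mean square difference between centred log2(CPM + 1) profiles, among 4395 genes with at least 20 CPM on average in AMCA-negative libraries. It was 0.41 for rfesd, 0.57 for si:ch211-197g15.10, 0.58 for ucp3, 0.63 for nmt1b, 0.67 for tal2 and 0.69 for mibp. Profiles include the difference between the groups, and candidates were chosen by their AMCA-negative level, so this likeness is no independent evidence. Adding 1 also narrows the differences between low CPM values. The 7 genes themselves differed from their own mean profile by 0.40 (sptb) to 0.96 (rhag). Rfesd averaged 0.632 CPM across the AMCA-positive libraries, against 453 CPM across the AMCA-negative ones, and mibp averaged 25.4 CPM across the AMCA-positive libraries, against 10687 CPM across the AMCA-negative ones.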

How the data were processed

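Per the labels' protocols, pituitaries were digested by Liberase and then trypsin, propidium iodide marked the dead cells in the sort, and a SMARTer Ultra Low Input kit gave full-length cDNA after 15 cycles. The authors deposited raw counts per gene and library, a normalized signal (the count over the library's size factor) and log2 fold changes, score and p-value columns of their own comparison. The submitters' processing notes list danRer10 as the build and the tools HTSeq, TopHat2 2.0.13, DESeq2 and cutadapt, without their roles; the annotation and the strand setting are not stated there or in the labels.

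Groups came from the dye label and plates from the titles. The count of every gene went into edgeR 4.0.16 (R 4.3.3) and its quasi-likelihood F test (two-sided, robust) after TMM scaling and filterByExpr, with terms for plate and group, Benjamini-Hochberg adjustment and a threshold of 0.05. SE is the error implied by the F test, and CPM is edgeR's count over the TMM-scaled library size times 1e+06, while shares are of a library's unscaled total. The genes and the 11 lists were chosen with earlier results of these data known. Of 191 list entries, 145 matched by name, 7 by RefSeq synonym and 39 were not found. The genes named were all 8; up to 6 tested genes of each related list with the smallest adjusted p, and set relatives; up to 3 of each marker list; and the 6 outside genes of most like profile. Marker lists also covered hormone genes, with 2 of 10 higher and 0 lower in AMCA-positive libraries, against 16.2% and 6.56% of all genes tested. Intervals are exact at 95%, and the floor is 3 counts. Without transcript lengths, levels of different genes were not ordered per kilobase, as had been planned. Alternatives were size factors from DESeq2 1.42.0, its Wald test, TMM leaving out red cell or hormone genes, limma 3.58.1 voom, other filters, no plate term, single plates, a block, and leaving out libraries; 2 settings that leave out a pair of libraries, and the ratios without blvrb and urod, were chosen after seeing the data. The fit was also run on simulated counts in which genes drawn at random were changed by known folds. That simulation had no plate effect and did not change the red cell genes as a set. It therefore does not check the scaling for these libraries.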

Additional observations from a re-analysis of the deposited data

Results flagged for a closer look

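Among 20 sets of 5 libraries examined for a library far from the others, 5 were set apart by a gap over 0.71 of the range. For independent, normally distributed values chance meets this rule in about 1 of 20 sets. These sets share libraries and many values lie near 0, so their own chance rate is not known. AMCA-positive replicate 3 had 3.10 CPM of sptb, with the next library of its group at 0.662 CPM. AMCA-positive replicate 4 had 6.56 CPM of rhag, with the next at 0.473 CPM. The 8 genes together had 71.4 counts per 1000 red cell marker counts in AMCA-positive replicate 4, with the next library at 29.9. For ank1a, replicate 4 stood apart in both groups, at 0.915 CPM in the AMCA-positive group (next 0.158) and at 7.72 CPM in the AMCA-negative group (next 1.597). The counts behind the dye-positive values are few: 21 of sptb, 43 of rhag and 6 of ank1a.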

How the results depend on the processing

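The 7 tested genes were lower in AMCA-positive libraries in all 23 alternative settings, with log2 fold changes from -11.76 (tmod4) to -6.38 (rhag). Rhag alone lost its call, and only in plate 1 alone (-11.09). Leaving out each library gave -9.37 to -8.67 for slc4a1a, -10.10 to -8.57 for sptb, -9.41 to -8.72 for epb41b, -9.54 to -8.80 for rhd, -10.09 to -7.07 for rhag, -9.39 to -8.71 for aqp1a.1 and -8.96 to -7.72 for tmod4. DESeq2 size factors moved the median of all genes (0.69) by 0.16 (log2); it was 1.78 with the block, 1.64 by limma-voom, 0.20 without the plate term and 0.13 with the 10 CPM filter, each over its own genes tested. Without AMCA-positive replicates 3 and 4 the log2 fold changes were -9.83 for slc4a1a, -10.27 for sptb, -9.67 for rhag, -10.28 for aqp1a.1 and -11.76 for tmod4.

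Counts of calls moved more. Over all genes, 2917 were higher by the DESeq2 Wald test and 676 with the filter of 10 CPM in 5 libraries, against 1693. In plate 1 alone 29 were higher and 34 lower, and without AMCA-positive replicates 3 and 4 these were 574 and 297, where fewer libraries were fitted. Leaving out each library gave 1273 to 1744 higher and 488 to 749 lower. Of the other genes listed with the skeleton (1 higher), 3 were higher with DESeq2 size factors, by its Wald test and without the plate term. Limma-voom gave 2, and plate 1 alone gave 0. Of the carriers (3 higher, 3 lower), 5 were higher by the Wald test and by limma-voom, 0 with the 10 CPM filter and in plate 1 alone, and 1 was lower in plate 1 alone and in both settings that left out a pair of libraries. Of the paralogs (4 higher, 2 lower), 7 were higher by the Wald test, 0 with the 10 CPM filter and in plate 1 alone, 1 without the plate term, 2 in plate 2 alone and 1 without AMCA-positive replicates 3 and 4. Of the paralogs, 1 was lower with the 10 CPM filter, without the plate term, in plate 2 alone and without AMCA-positive replicates 3 and 4, and 0 were lower in plate 1 alone. Leaving out each library gave 1 to 3 genes of the skeleton list higher, 3 to 4 carriers higher and 1 to 3 carriers lower. The same fits gave 1 to 5 paralogs higher and 1 to 2 paralogs lower. The cause of these moves was not tested.

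Uncalled genes changed sign: mpp1 (0.57) to -0.04 in plate 1 alone and -0.01 without AMCA-negative replicates 3 and 4, and mylpfa (-2.35) to 0.09 by limma-voom. The gene ckmb (2.76) went to -2.01 in plate 1 alone, -2.40 without AMCA-positive replicates 3 and 4 and -0.58 without AMCA-negative replicates 3 and 4, and ckma (4.10) to -5.48, -4.84 and -3.81. Their cause was not tested.

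Replicate numbers follow sample order. Deviations of same-numbered libraries correlated by 0.002 to 0.042, so the numbers were not taken as pairs. The labels do not say whether such libraries share a pool, which low correlations do not settle. With neighbouring wells as a replicate block, 438 genes were lower and 1324 higher, 1 carrier and 1 paralog were lower, 2 paralogs were higher, mylpfa went to 0.39, and all 7 genes stayed called, rhag at -9.16 and tmod4 at -9.04.

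Without the 10 most counted genes of each library, the share of the 8 genes was 0.00263% in AMCA-positive libraries, against 0.989% in AMCA-negative ones. Per 1000 non-globin marker counts it averaged 188 in AMCA-positive libraries, against 396 in AMCA-negative ones, and without blvrb and urod 458 in AMCA-positive libraries, against 474 in AMCA-negative ones. Leaving out each library moved the mean share between 0.00179% and 0.00275% in AMCA-positive and between 0.602% and 0.681% in AMCA-negative libraries, and the mean per 1000 red cell marker counts between 18.1 and 32.6 in AMCA-positive and between 20.9 and 23.7 in AMCA-negative libraries. With 44 to 275 counts of the 8 genes in an AMCA-positive library, depth limits each dye-positive value.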
